A study of Homo sapiens with 4 samples.

Results

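Broad control peaks are stretches of at least 1500 bp that were called as one region of open chromatin in HEK293T cells not transfected with MORC2. They were chosen by their width alone, as all rows of the control peak list on nuclear chromosomes whose end minus start was at least 1500 bp, which gave 2944 of 59791 control peaks (4.92%). They held 5.40 Mb, or 14.4% of all bases in nuclear control peaks. Control width is therefore given below as a description. The question addressed is how many of these stretches were kept whole, narrowed or broken into several peaks in cells overexpressing MORC2.

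The assay was ATAC-seq, in which a transposase, Tn5, cuts accessible DNA and tags the cut ends for sequencing. HEK293T is an established cell line derived from human embryonic kidney and expressing the large T antigen of SV40. The control group (2 libraries) received lipofectamine, the transfection reagent, and an empty plasmid is neither named nor denied by the labels. The overexpression group (2 libraries) was transfected with lipofectamine and a plasmid carrying wild-type MORC2 fused to a green fluorescent protein, and the methods of the study give 72 hours of transfection. Both groups kept their own MORC2 gene, and transfected and untransfected cells were not separated as far as the sources used here say. Whether MORC2 levels rose was not checked here, because the assay measures neither RNA nor protein, and the cell line was not checked against markers for the same reason.

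Most ATAC-seq peaks are narrow because an active promoter or enhancer usually frees only the DNA between a few neighbouring nucleosomes. A broad peak arises where several such free stretches lie so close that the signal between them stays above background, as occurs at large CpG-rich promoters, at divergent promoters and at clusters of regulatory elements. MORC2 is a dimeric ATPase that clamps and compacts DNA and works with the HUSH silencing complex.

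The 2 groups had unequal depth and 1 peak list each. Promoter counts on nuclear chromosomes were 4928862 and 3675088 for control and 1826951 and 979895 for overexpression, a ratio of 3.07 between the groups. Mitochondrial promoters held 51.9% and 55.6% of all counts in control and 74.7% and 73.8% in overexpression. Depth, the transfected plasmid and MORC2 cannot be told apart in this design. No difference between the lists has a replicate check, and the 95% Wilson intervals on shares of peaks cover counting error only.

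The lists also differed in how they were joined. No control peak was shorter than 205 bp and no overexpression peak shorter than 241 bp, and the shortest gaps between neighbouring peaks were 206 bp and 242 bp. A gap of 206 to 241 bp could thus separate neighbouring peaks in the control list but occurred nowhere in the overexpression list.

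The broad control peaks had a median width of 1744 bp, with quartiles at 1605 and 1962 bp and a maximum of 3801 bp. Of them, 2294 were 1500 to under 2000 bp wide, 518 were 2000 to under 2500 bp and 132 were 2500 bp or more. They ranked higher in the list by significance than by height. The median of the authors' −log10 p was 77.5, at percentile 84.8 of the control list, while the median of the authors' fold enrichment over background at the summit was 8.21, at percentile 68.7. Median fold was 4.24 in control peaks under 500 bp, 7.82 at 500 to under 1000 bp and 10.5 at 1000 to under 1500 bp. It was lower again in the broad peaks, at 8.64, 7.33 and 6.06 from the narrowest to the broadest of their 3 width classes. The broadest open regions were thus lower at the summit than the class of peaks just below the threshold. Median −log10 p was also higher in that class, at 85.0, than in the broad peaks. It was 80.2, 72.1 and 59.3 from the narrowest to the broadest of their 3 width classes. Across the 2944 members, width and fold had a Spearman correlation of −0.28, where both values come from the same list.

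The summit of a broad peak was in the outer 25% of the peak at either end in 941 of the 2944 (32.0%). This share was not counted for other control peaks. The median distance from summit to nearer end was 31.2% of the width. Among narrower control peaks it was 31.1% under 500 bp, 37.3% at 500 to under 1000 bp and 37.2% at 1000 to under 1500 bp. Summits this far off centre were thus not particular to broad peaks. Within the broad peaks the median distance was 25.9% at 2000 to under 2500 bp and 26.8% at 2500 bp or more.

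In the overexpression list, 1664 of the 2944 broad control peaks were kept (56.5%, interval from 54.7% to 58.3%), which means that exactly 1 overexpression peak overlapped and had at least 80% of the control width. A further 845 were narrowed (28.7%, interval from 27.1% to 30.4%), with 1 overexpression peak under 80% of the control width. These 2 shares depend on where the limit is set, as 78.6% were kept and 6.59% narrowed with a limit of 0.5 of the width, and 36.7% and 48.5% with a limit of 0.9. Another 419 were broken into 2 or more overexpression peaks (14.2%, interval from 13.0% to 15.5%), of which 410 were in 2 pieces and 9 in 3. The remaining 16 were missing (0.543%, interval from 0.335% to 0.881%). An overlap of 1 bp was enough to count. Among all 59791 control peaks, 30.9% were kept, 20.4% narrowed, 0.868% broken and 47.8% missing, with 52.2% overlapped at all, and most of that list is narrow and weak. In all, 2928 of the 2944 regions (99.5%) had at least 1 bp in an overexpression peak of any strength. With only overexpression peaks of −log10 q of at least 5 the missing share was 3.06%, and at 10 it was 14.1%. Equal numbers of top-ranked peaks in both lists changed the members too, as 2922 remained, and 0.308% of these were missing.

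**Figure D1:**
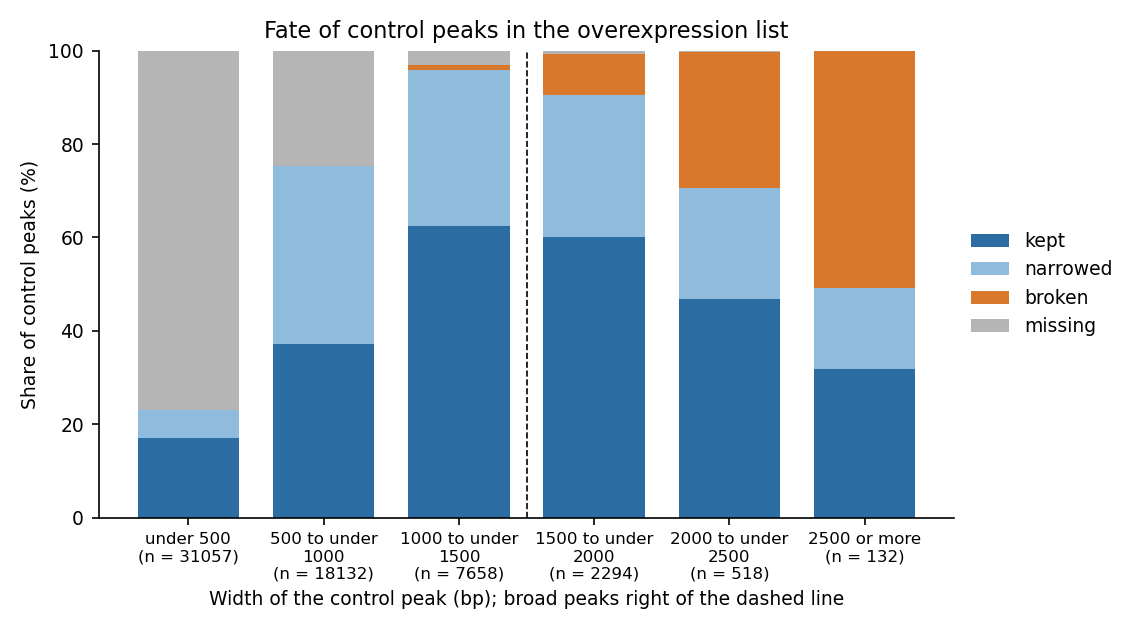
Share of control peaks (%) that were kept, narrowed, broken or missing in the overexpression list, by control peak width in bp, with the number of peaks under each bar and no replicate error because there was 1 list per group. From 1500 to under 2000 bp to 2500 bp or more the broken share was 8.76%, 29.2% and 50.8%, while the kept share was 60.2%, 46.7% and 31.8%.

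With the same rule for every width class, loss of the whole peak was most frequent among narrow peaks and breaking among broad ones. The missing share was 76.9% under 500 bp, 24.6% at 500 to under 1000 bp, 3.11% at 1000 to under 1500 bp and 0.654% at 1500 to under 2000 bp. The broken share was 0 of 31057, 17 of 18132 (0.0938%), 83 of 7658 (1.08%) and 201 of 2294 (8.76%) in the same classes. It was 151 of 518 (29.2%, interval from 25.4% to 33.2%) at 2000 to under 2500 bp and 67 of 132 (50.8%, interval from 42.3% to 59.1%) at 2500 bp or more. None of the 132 broadest peaks was missing, with an upper bound of 2.83%. A longer peak has more room for gaps, and none in the overexpression list was shorter than 242 bp. The part of such room in the rise of the broken share was not tested.

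The broken share also depends on weak pieces. With the overexpression list restricted to −log10 q of at least 5 it was 8.53%, and at 10 it was 2.45%. Joining peaks of both lists across gaps of up to 500 bp before choosing members gave 8.21% of 3460.

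The strength of a broad peak went with its fate. The 2944 were divided into 4 equal bins by the authors' control −log10 p, with edges at 47.6, 77.5 and 117.4. From the weakest to the strongest bin the kept share was 30.0%, 55.7%, 66.7% and 73.6%, and the broken share was 24.2%, 15.8%, 8.56% and 8.42%. All 16 missing members lay in the weakest bin, where they made up 2.17%. Within each of these bins, breaking was still more frequent at greater width. In the strongest bin 3.88% of peaks of 1500 to under 2000 bp were broken (n = 619, interval from 2.62% to 5.70%), against 30.1% at 2000 to under 2500 bp (n = 103, interval from 22.1% to 39.5%). In the weakest bin the values were 18.2% (n = 565) and 37.4% (n = 123), and 60.4% of the 48 broadest peaks there.

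The same edges applied to control peaks of 1000 to under 1500 bp, the class just below the threshold, gave broken shares of 2.55%, 1.55%, 0.316% and 0.115%. Kept shares in that class were 30.1%, 58.4%, 74.2% and 83.6%, close to those of the broad peaks in the weakest bin and higher in the strongest. With bins by fold in place of −log10 p (edges at 6.67, 8.21 and 9.91), the broken share of broad peaks was 25.3%, 14.7%, 8.02% and 8.97%, against 3.29%, 1.55%, 1.07% and 0.305% at 1000 to under 1500 bp. In each bin of fold or −log10 p the intervals of broad and less broad peaks did not overlap for breaking. The bins share edges only, and strength was not matched inside them.

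Measured as width, the overexpression peaks over a broad control peak had a median summed width of 0.84 of the control width (quartiles 0.70 and 0.94), and covered a median of 83.6% of its bases. The median ratio was 0.86 at 1500 to under 2000 bp, 0.81 at 2000 to under 2500 bp and 0.75 at 2500 bp or more. It was 0.85 at 1000 to under 1500 bp. Of the 2509 members with exactly 1 overexpression peak, 233 (9.29%) were wider in overexpression and 194 (7.73%) had under 0.5 of their control width. An overexpression peak of at least 1500 bp overlapped 1259 of the 2944 (42.8%, interval from 41.0% to 44.6%). The shares of members that were wider, under 0.5 of their width or under such a peak were not counted for other control peaks. They are thus not shown to be particular to broad ones.

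**Figure D2:**
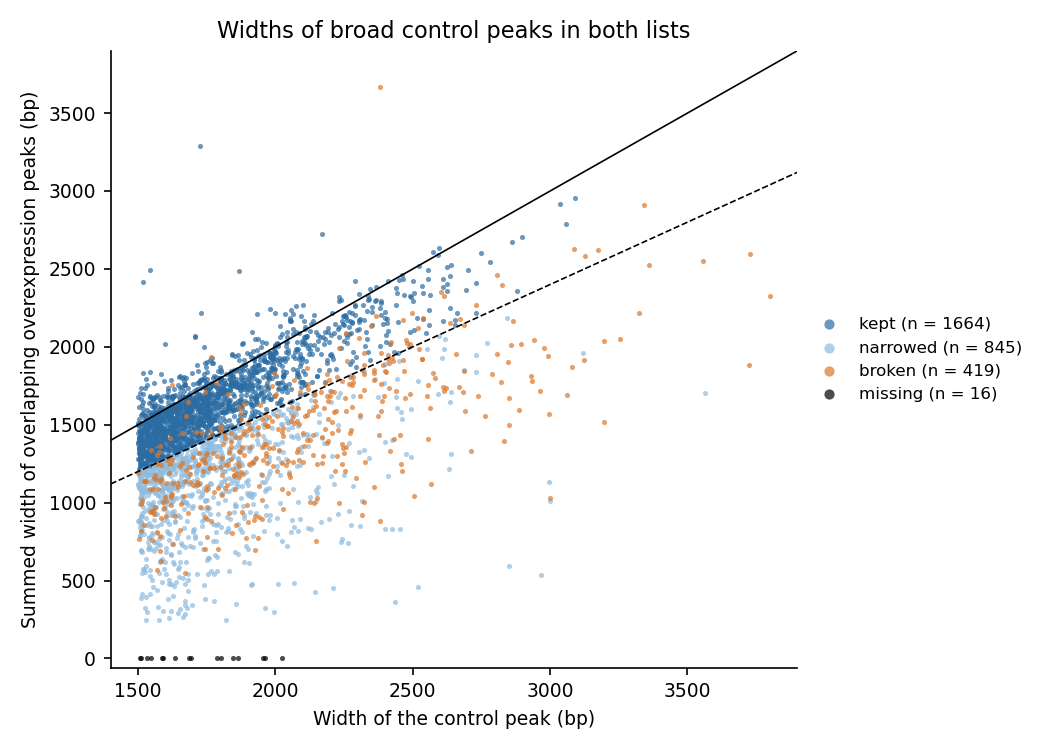
Summed width of the overlapping overexpression peaks (bp, vertical axis) against the width of each of the 2944 broad control peaks (bp, horizontal axis), 1 point per peak, coloured by fate. The solid line marks equal width and the dashed line 80% of the control width; most kept peaks lie between the lines, 233 single peaks lie above the solid line and the 16 missing peaks lie at 0.

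Because peaks picked for their width in one list tend to be less wide in another, the rule was also turned round. The overexpression list held 1387 peaks of at least 1500 bp (3.98% of 34893). In the control list, 1326 of them were kept (95.6%, interval from 94.4% to 96.6%), 14 were narrowed (1.01%), 47 were broken (3.39%, interval from 2.56% to 4.48%) and 0 were missing. Among all overexpression peaks 85.3% were kept, 4.84% narrowed, 0.378% broken and 9.5% missing in control. The median ratio of control to overexpression width was 1.05 (quartiles 1.00 and 1.11), and 1258 of the 1387 (90.7%) overlapped a broad control peak. The other 129 overlapped control peaks whose widest had a median of 1356 bp and was never under 756 bp.

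Peaks chosen as broad in control were mostly narrower in overexpression, whereas peaks chosen as broad in overexpression were mostly as wide or wider in control. Of the 1387, 356 (25.7%) were narrower in control. Broken peaks were also less frequent in this direction at each width, at 2.83%, 4.88% and 23.5% for 1165, 205 and 17 peaks in the 3 width classes. The last of these rests on 4 of 17 peaks (interval from 9.56% to 47.3%), which overlaps the interval of the broadest control peaks. The shortest gap was 206 bp in the control list and 242 bp in the overexpression list, and the part of this in the difference was not tested.

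**Figure D3:**
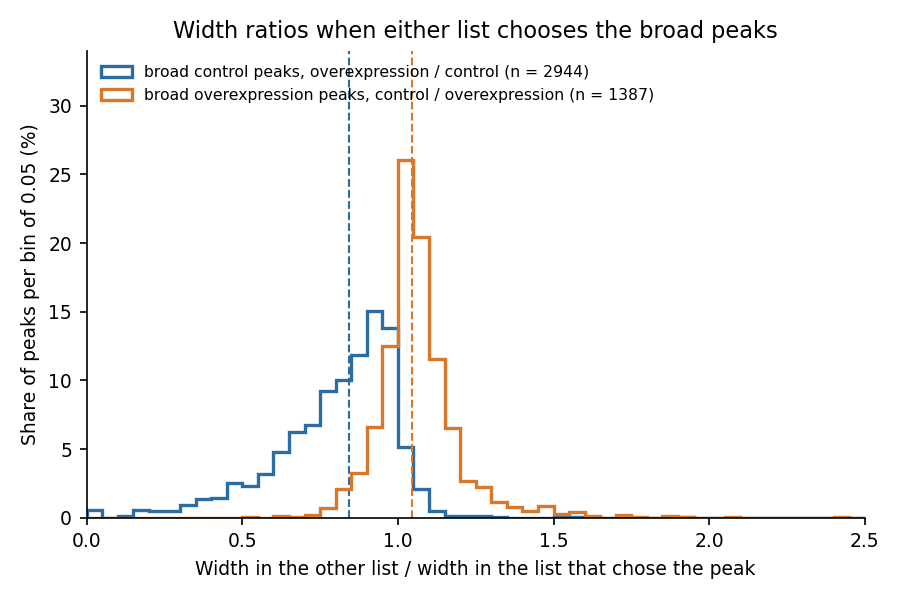
Share of peaks (%) by the ratio of the width in the other list to the width in the list that chose the peak, in bins of 0.05 up to 2.5, for 2944 broad control peaks and 1387 broad overexpression peaks, with dashed lines at the medians of 0.84 and 1.05. The first distribution has a tail towards 0 and the second sits around and above equal width.

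Of the 5.40 Mb in broad control peaks, 4.23 Mb (78.5%) lay in an overexpression peak and 1.16 Mb did not. The uncovered bases were at the outer ends of members in 80.3% of cases, between pieces in 17.3% and in missing members in 2.37%. By definition a kept or narrowed member has 1 overexpression peak and can be uncovered only at its ends, which fixes most of this division. Narrowed members held 50.5% of the uncovered bases, broken members 25.1% and kept members 22.1%.

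The ends of each member were ordered by their uncovered bases, so a longer and a shorter loss follow by definition. How often a difference of 3 times would arise without preference for an end was not computed. In narrowed members the end with more uncovered bases lost a median of 485 bp and the other end 109 bp, and in 518 of the 845 (61.3%) the longer loss was at least 3 times the shorter. In kept members the corresponding medians were 110 bp and 8 bp, with such an inequality in 1073 of 1664 (64.5%), and in broken members 139 bp and 10 bp, with 277 of 419 (66.1%). Overexpression peaks reached outside the control peak in 875 of the 2928 members found (29.9%), by a median of 44 bp.

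In broken members 69.05% of the uncovered bases lay between pieces and 30.95% at the outer ends. The 428 gaps had a median of 409.5 bp, with quartiles at 321.8 and 561.3 bp, a shortest of 242 bp (the limit set by the list) and a longest of 1430 bp. The gap's middle fell in the central 50% of the control peak for 396 of the 428 (92.5%), which the need for a piece on each side favours by construction. The widest piece had a median of 905 bp and the narrowest 466 bp, an order that holds by definition. The piece with the highest −log10 p held the control summit in 338 of the 419 (80.7%). Broken members had their control summit nearer to an end, at a median of 21.9% of the width, against 32.2% in kept and 33.3% in narrowed members. They were also wider (median 2026 bp, against 1718 and 1716 bp) and lower in the authors' control fold (6.97, against 8.76 and 7.52).

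**Figure D4:**
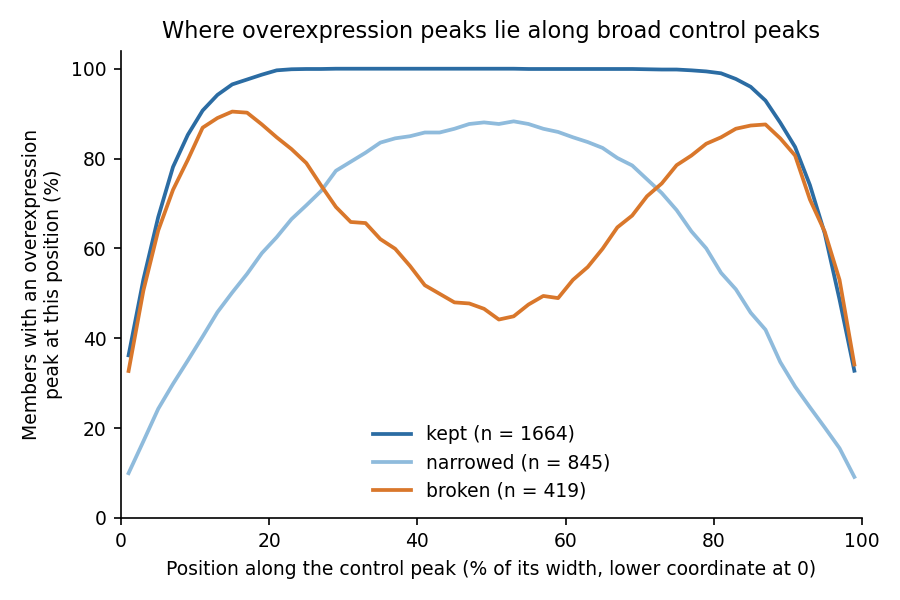
Share of members (%) with an overexpression peak at each position along the control peak, given as % of its width in 50 bins from the lower coordinate, for kept (n = 1664), narrowed (n = 845) and broken (n = 419) members. With both ends averaged, the outer 10% at each end was covered in 62.1% of kept, 21.5% of narrowed and 60.2% of broken members, while the central 20% was covered in nearly all kept, 87.0% of narrowed and 47.9% of broken members.

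The control summit lay inside an overexpression peak in 2883 of the 2944 members (97.9%). It lay outside in 1 kept, 33 narrowed and 11 broken members beside the 16 missing ones. Any overlap was found for 99.5% of members, 96.9% of control peaks of 1000 to under 1500 bp and 52.2% of all control peaks. The share with a covered summit was not computed for other control peaks, so the 97.9% is not shown to be particular to broad ones. The summit of the strongest overlapping overexpression peak was a median of 66 bp from the control summit, against 52 bp at 1000 to under 1500 bp. It was over 200 bp away in 631 of the 2928 members found (21.6%, interval from 20.1% to 23.1%), against 13.5% of 7420 at 1000 to under 1500 bp (interval from 12.7% to 14.3%) and 10.9% of all control peaks found. A wider peak leaves more room for such a distance, and the part of width in this difference was not tested.

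Peak heights are relative to the background of each list. The median of the highest fold among the overexpression peaks over a member was 6.68, against 8.23 in control for the 2928 members found. Fold was higher in control for 2681 of them (91.6%). The median of the highest −log10 p, taken separately from fold, was 24.9 in overexpression against 77.8 in control, a measure that grows with depth. Over all nuclear peaks of each list the median fold was 5.72 in control and 6.06 in overexpression. The members were chosen from the control list. How often fold was higher in control was not counted for other control peaks, so the 91.6% has no background.

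The broadest control peak lay at chr4:20234171-20237971 (3801 bp, T2T-CHM13 as for all positions given here) and had a fold of 5.91. It was broken into overexpression peaks of 2048 and 275 bp, with 559 bp between them and 1107 bp uncovered beyond the second. The next, at chr21:25201103-25204830 (3728 bp), was broken into 1067 and 1526 bp across a gap of 1029 bp, with its outer ends almost complete. The third, at chr2:176592547-176596271 (3725 bp), kept pieces of 802 and 1084 bp and lost 748 and 682 bp at its ends. All 3 of the broadest regions were therefore broken, in different ways. Genes and sequences at these positions were not analysed here.

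Of the 9 members in 3 pieces, the widest was chr17:7737910-7741165 (3256 bp, control fold 6.40), with pieces of 343, 1278 and 429 bp. Pieces of 842, 392 and 459 bp remained of chr21:5614115-5617174 (3060 bp), and 421, 941 and 354 bp of chr2:72928934-72931896 (2963 bp), where 1248 bp between pieces were uncovered. In 2 of these 3 the middle piece was the widest and had the highest fold, at 3.77 on chromosome 17 and 5.69 on chromosome 2.

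**Figure D5:**
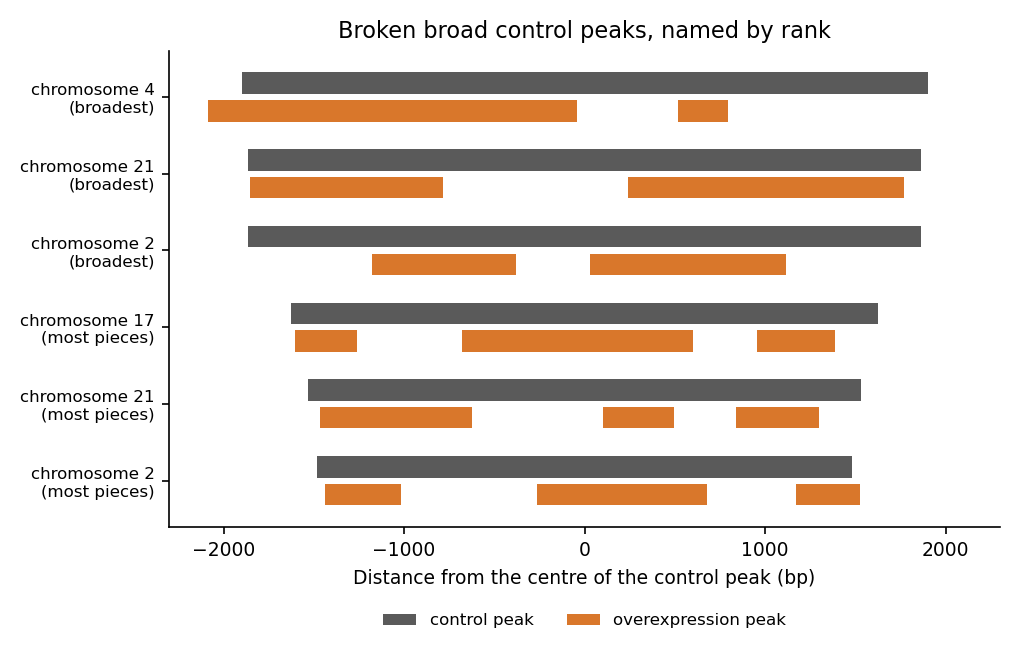
Control peaks (grey) and the overexpression peaks that overlap them (orange), by distance in bp from the centre of the control peak, for the 3 broadest members and the 3 widest members in 3 pieces, drawn to scale. The 6 regions show a short far piece on chromosome 4, a wide central gap on chromosome 21 (broadest) and short flanking pieces beside a wider one on chromosome 17.

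Of the 3 members with the highest control fold, 1 was kept and 2 were narrowed. The member with the highest fold, chr1:16706182-16708036 (1855 bp, fold 17.2), was kept at 1756 bp with a fold of 12.6. The second, chr3:42819038-42820573 (1536 bp, fold 16.1), was narrowed to 1046 bp, and the third, chr4:154732368-154733993 (1626 bp, fold 16.0), to 1138 bp. Both lost more from one end, at 399 and 461 bp, than from the other, at 91 and 27 bp.

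The missing members were weak in control. Their median fold was 4.06 and their median −log10 p 11.8, against 8.21 and 77.5 for all members. The 3 with the highest −log10 p were chr7:121587709-121589494 (1786 bp, fold 6.90, −log10 p 22.2), chr8:143652974-143654560 (1587 bp, fold 4.32, −log10 p 19.9) and chr11:2471723-2473314 (1592 bp, fold 3.56, −log10 p 18.3).

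Among members with 1 overexpression peak, the smallest ratio was 0.14, at chrX:134355287-134357105, where 250 of 1819 bp remained. At chr16:3906696-3908688 the overexpression peak was 297 bp of 1993 bp although the control fold was 8.72, and at chr17:372515-374948 it was 363 bp of 2434 bp. The largest ratio was 1.90, at chr17:82734436-82736161, where a control peak of 1726 bp met an overexpression peak of 3288 bp, the widest of its list. That overexpression peak ran on over the neighbouring broad control peak chr17:82736426-82738807 (2382 bp) and was the single one to join 2 members. Next came chr6:145478441-145479985 (1545 bp to 2496 bp) and chr1:209611750-209613266 (1517 bp to 2414 bp). In all, 11 members lay under an overexpression peak that spanned more than 1 control peak.

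Near the threshold, fates were mixed on both sides. The first 3 members by position with exactly 1500 bp were chr5:42125803-42127302 (narrowed to 1116 bp), chr5:158262347-158263846 (broken into 744 and 446 bp) and chr6:83456527-83458026 (narrowed to 1118 bp). Peaks 1 bp narrower, just outside, were chr1:26458140-26459638 (1307 bp in overexpression), chr7:130746689-130748187 (1467 bp) and chr11:12766429-12767927 (674 bp).

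Broad control peaks were scattered over all 23 nuclear chromosomes with peaks, with a median of 221.5 kb to the nearest other broad peak. Another lay within 10 kb of 122 members (4.14%) and within 50 kb of 511 (17.4%), and no stretch of 10 kb held more than 2 whole members. Among stretches that held 2 whole members, the one of shortest total span was chr4:64637946-64641315 (3370 bp). Any other control peak lay within 2 kb of 277 members (9.41%, interval from 8.41% to 10.5%). This share was 16.8% under 500 bp and 11.1% at 1000 to under 1500 bp (interval from 10.4% to 11.8%, overlapping that of the members). Within 10 kb the order differed, with 50.6% of members, 53.8% under 500 bp and 48.6% at 1000 to under 1500 bp. The 277 members with a neighbour within 2 kb were kept in 40.1% (interval from 34.5% to 45.9%), narrowed in 40.1% and broken in 19.1%. The other 2667 were kept in 58.2% (interval from 56.3% to 60.1%), narrowed in 27.5% and broken in 13.7%. Members with a close neighbour were also weaker, with a median −log10 p of 53.2 against 79.7, and the part of strength in this difference was not tested.

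By chromosome, broad peaks made up from 2.90% of control peaks on chromosome 13 (62 of 2137, interval from 2.27% to 3.70%) to 6.48% on chromosome 17 (160 of 2469, interval from 5.58% to 7.52%). The kept share was highest on chromosome 4 (97 of 144, 67.4%, interval from 59.3% to 74.5%) and was 45.1% on chromosome 19 (46 of 102, interval from 35.8% to 54.8%) and 43.4% on chromosome 22 (23 of 53, interval from 31.0% to 56.7%). The intervals of chromosomes 4 and 19, picked after ranking and not adjusted for it, did not overlap. Their members had a median −log10 p of 80.8 and 63.0. With 23 chromosomes looked at, the extremes are a description. The broken share ran from 9.71% on chromosome X to 23.1% on chromosome 21 (9 of 39), with overlapping intervals.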

How the data were processed

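ATAC-seq libraries of control and MORC2-overexpressing HEK293T cells (2 each) were grouped by the sample labels. As the study's methods and processing notes state, reads were trimmed and aligned with bowtie2 to T2T-CHM13 by the authors, proper pairs of high mapping quality were retained, duplicates were removed with Picard, and MACS2 in its paired-end mode called the peaks. A Tn5 shift of read ends was not described. One narrowPeak list was deposited for each group and read here as a call on its pooled libraries. The authors' lists give positions, a ratio of summit signal to local background (fold enrichment), −log10 p and −log10 q. The deposited promoter counts are raw counts per Entrez gene without positions and served only for depth, with mitochondrial genes found through a RefSeq table of GRCh38.p14.

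The peak lists were handled in Python 3.11.15 (pandas 2.3.3, scipy 1.17.1). Fates used an overlap of 1 bp and 0.8 of the control width. Intervals are 95% Wilson intervals and cover counting error only. No test between groups was made. Overlaps were first tested on simulated intervals with known answers. Regions were named by rank of width, fold, −log10 p, number of pieces and ratio, 3 per rank. Members, lists and rules were chosen with earlier results of these data known. Alternatives covered the width threshold, overlap, q threshold, joining of peaks, equal numbers of peaks and autosomes. Because no CHM13 genome was used here, genes, sequences and promoters under the peaks were not analysed.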

Additional observations from a re-analysis of the deposited data

How the results depend on the processing

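The main limits are 1 list per group, unequal depth and unequal bridging. No paired analysis was possible because each group has 1 pooled peak list. The planned comparison of promoters under broad peaks, with its alternatives of scaling, filter, replicate block and leave-one-out, was not run, since the counts carry no positions and a CHM13 annotation was not used here. Of 110 values recomputed under 16 settings, 63 stayed within the interval of the reported value. Joining across 200 bp changed nothing, as no gap is that short, and autosomes alone and both stricter overlaps moved no value. Joining across 250 bp, joining control peaks across gaps that overexpression bridges, and leaving out the weakest 25% of members were chosen after seeing the data.

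With a width of at least 1000 bp, 60.8% were kept, 32.1% narrowed, 4.73% broken and 2.40% missing, and turned round 97.0% were kept with a ratio of 1.08. At 2000 bp the values were 43.7%, 22.6%, 33.5% and 0.154% with a ratio of 0.80 and 79.5% covered, and turned round 92.8% and 1.04. At 2500 bp they were 31.8%, 17.4%, 50.8% and 0% with 0.75 and 73.8%, and turned round 76.5% of 17 peaks. With −log10 q of at least 5 in the looked-up list, 31.9% were narrowed, 8.53% broken and 3.06% missing. At 10, 53.8% were kept, 2.45% broken and 14.1% missing, with a ratio of 0.83 and 82.1% covered. Counting as kept from 0.5 of the width gave 78.6% kept and 6.59% narrowed, and from 0.9 gave 36.7% and 48.5%. Joining across 500 bp gave 32.9% narrowed, 8.21% broken and 1.33% missing, and turned round 98.3% kept and a ratio of 1.05. Turned round, 96.9% were kept when joining across 250 bp and 96.7% when control peaks were joined across gaps that overexpression bridges. Equal numbers of top-ranked peaks left 2922 members, of which 0.308% were missing. Without the weakest 25% of members, 65.4% were kept, 23.7% narrowed, 10.9% broken and 0% missing, with a ratio of 0.88 and 86.9% covered. Moving the limit for kept members shifts kept against narrowed by construction. For the other settings the cause was not tested.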
